A study of Mus musculus with 6 samples.

Results

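The genes described here present antigen on MHC class II: the chains H2-Aa, H2-Ab1 and H2-Eb1, the invariant chain Cd74, the peptide-editing genes H2-DMa, H2-Oa and H2-Ob, the transactivator Ciita and the protease Ctss. They were chosen by name, and all 9 had a probe set whose platform annotation gave that symbol alone, 17 probe sets in all among 45101 on the array. Where a gene had several probe sets, the brightest by mean over the 6 arrays stood for it. RNA came from whole ovaries of female mice aged 8 months, with both ovaries pooled. The FORKO group (3 samples) lacked the receptor for follicle-stimulating hormone, Fshr, through a deletion said to remove all its variants, and the wild-type (WT) group (3 samples) was bred from the same heterozygotes, on a 129T2 svEmsJ background. One Affymetrix Mouse Genome 430 2.0 array was run per sample.

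MHC class II molecules carry peptides from the endosomes of an antigen-presenting cell to its surface, where CD4 T cells read them. An alpha and a beta chain pair in the endoplasmic reticulum around the invariant chain, which is then trimmed by cathepsin S in the endosome until DM exchanges the last fragment for a peptide. Ciita, which interferon-gamma induces, does not bind DNA itself but is recruited to the X and Y boxes in front of these genes by the RFX and NF-Y factors. In the ovary, macrophages and dendritic cells are known carriers of class II.

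The promoters are shown because Ciita acts through paired X and Y boxes there. RefSeq windows on GRCm38.p6, each running from 250 bases before to 50 bases after a gene's start, were found for 6 of the 9 genes in 7 windows, and H2-Ab1, Cd74 and Ciita did not match. The X core searched was ACNGATG, where N is any base, and the Y core was GATTGG, both on either strand; the cores do not overlap in the windows given. The stretches below cover positions -150 to -21 before the start, with each core in capitals (CCAATC is a Y core on the opposite strand). H2-DMb2, a beta chain of DM, is added as a relative from the same gene cluster.
H2-Aa: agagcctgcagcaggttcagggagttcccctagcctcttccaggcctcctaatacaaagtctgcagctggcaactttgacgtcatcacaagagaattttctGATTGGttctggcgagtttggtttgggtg
H2-Eb1: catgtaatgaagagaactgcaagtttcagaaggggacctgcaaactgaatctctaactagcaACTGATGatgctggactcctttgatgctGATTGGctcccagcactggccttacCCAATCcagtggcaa
H2-Oa: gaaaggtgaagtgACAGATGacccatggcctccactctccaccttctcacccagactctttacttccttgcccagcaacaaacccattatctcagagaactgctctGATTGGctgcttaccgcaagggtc
H2-Ob: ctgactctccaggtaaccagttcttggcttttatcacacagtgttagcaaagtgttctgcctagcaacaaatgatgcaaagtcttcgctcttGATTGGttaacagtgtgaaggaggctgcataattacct
H2-DMb2: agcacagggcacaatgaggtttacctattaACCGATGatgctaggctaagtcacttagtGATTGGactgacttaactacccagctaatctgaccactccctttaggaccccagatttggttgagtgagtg

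The stretch of H2-Aa lies on the minus strand at chr17:34287844-34287973. Those of H2-Eb1 (chr17:34305717-34305846), H2-Oa (chr17:34092229-34092358), H2-Ob (chr17:34238755-34238884) and H2-DMb2 (chr17:34145099-34145228) lie on the plus strand. In H2-Eb1 the X core began 88 bases and the Y core 60 bases before the start, with 21 bases between them. H2-DMb2 held the same pair, 120 and 91 bases before its start, with 22 bases between them. Such a pair, an X core followed on the same strand by a Y core after 10 to 30 bases, was present in 20 of 32851 promoter windows of the genome table (0.0609%). Alone, the X core was in 9.85% and the Y core in 16.1% of windows. H2-Eb2 and H2-DMb1, a further beta chain gene and the other DM beta chain, also held the pair, so that 4 class II genes were among the 18 genes with it.

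The other class II windows held no such pair. H2-Aa had a Y core 49 bases before its start and an X core on the opposite strand 232 bases before it. H2-Oa had an X core 137 bases and a Y core 44 bases before its start, which is too far apart to count as a pair, and H2-Ob had a Y core 58 bases before its start. One of the 2 windows of H2-DMa had a Y core 199 bases before the start and the other had neither, and Ctss had an X core 206 bases before its start. A core that was not found says only that these letters were not in the window, and a match says only that they were. Boxes spelled otherwise were not searched, so these genes may hold paired boxes that the cores miss.

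**Figure D1:**
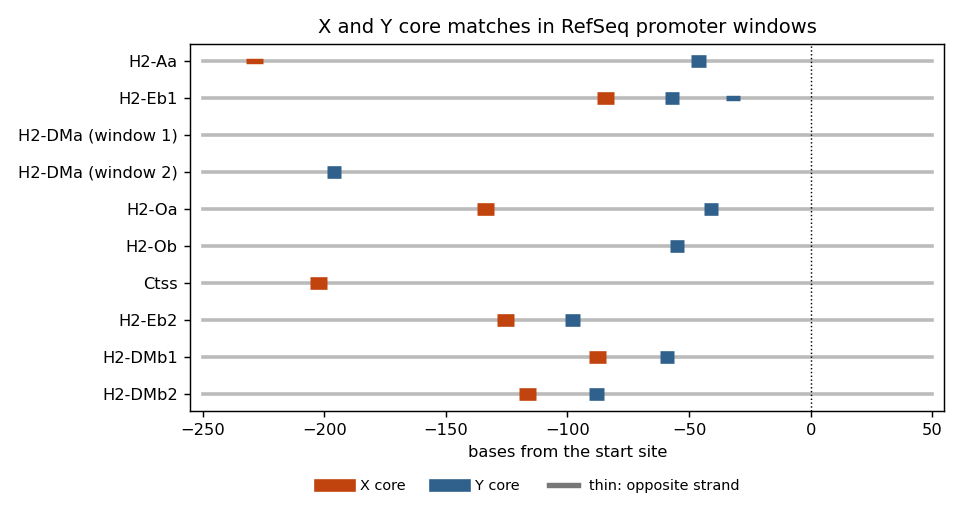
Matches to the X core (orange) and the Y core (blue) along RefSeq promoter windows of class II genes, in bases from the start site (0, dotted line); thin bars are on the opposite strand. H2-Eb1, H2-Eb2, H2-DMb1 and H2-DMb2 show an X core followed by a Y core after 21 or 22 bases, and the other windows do not.

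Signals are MAS5 intensities after scaling all arrays to 1 trimmed mean, and a log2 change is the FORKO minus the WT mean of log2(signal + 5.73), a scale that understates the change of dim probe sets. Probe sets with a mean signal of at least 20.4 were tested, which left 22506 probe sets and 11199 genes. The deleted gene Fshr read 1.20, 11.2 and 11.7 on the FORKO arrays, against 99.6, 59.4 and 119 on the WT arrays (log2 change -2.90 ± 0.39, SE; limma adjusted p = 0.0102; 0.0526 when WT replicate 1 was left out and 0.0598 when WT replicate 3 was). Where its probe set lies relative to the deletion is not known here. FORKO replicate 1 stood apart: its log2 signals correlated across probe sets at 0.934 to 0.936 with the other FORKO arrays, which correlated with each other at 0.976, while WT arrays correlated at 0.966 to 0.969. The class II genes tested are therefore given with and without that array, as are other genes whose difference moved by over 1.5 times when it was left out. Defining ovarian genes were measured, such as Foxl2, Amhr2, Star and Zp2, while Amh did not reach the dim filter on its probe set.

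Signals of the class II genes were higher on average in FORKO than in WT ovaries, by about 1.4 to 2.3 times for the 7 genes tested, but none of these differences passed limma's test after adjustment over all probe sets. FORKO replicate 1 read the highest of the 6 arrays for each of the 7. Of the 7 genes, 0 passed at an adjusted p of 0.05, where 2.14% of all 11199 genes tested did, a share that was 1.3% with FORKO higher. An unadjusted p under 0.05 was found for 5, all with FORKO higher, where 16.8% of all genes had one and 8.64% had one with FORKO higher. The groups did not overlap for 4 of the 7, all with FORKO higher, against 10.7% of all genes. Of the 12 probe sets of these genes that were tested, 0 passed, against 1.65% of all probe sets, and 8 had groups that did not overlap, against 9.99%. The median log2 change of the 7 was 0.88, beside -0.02 for all genes tested. H2-Ob and Ciita were below the filter and were not tested. H2-Oa passed it through its FORKO arrays, since its WT mean was under 20.4.

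**Figure D2:**
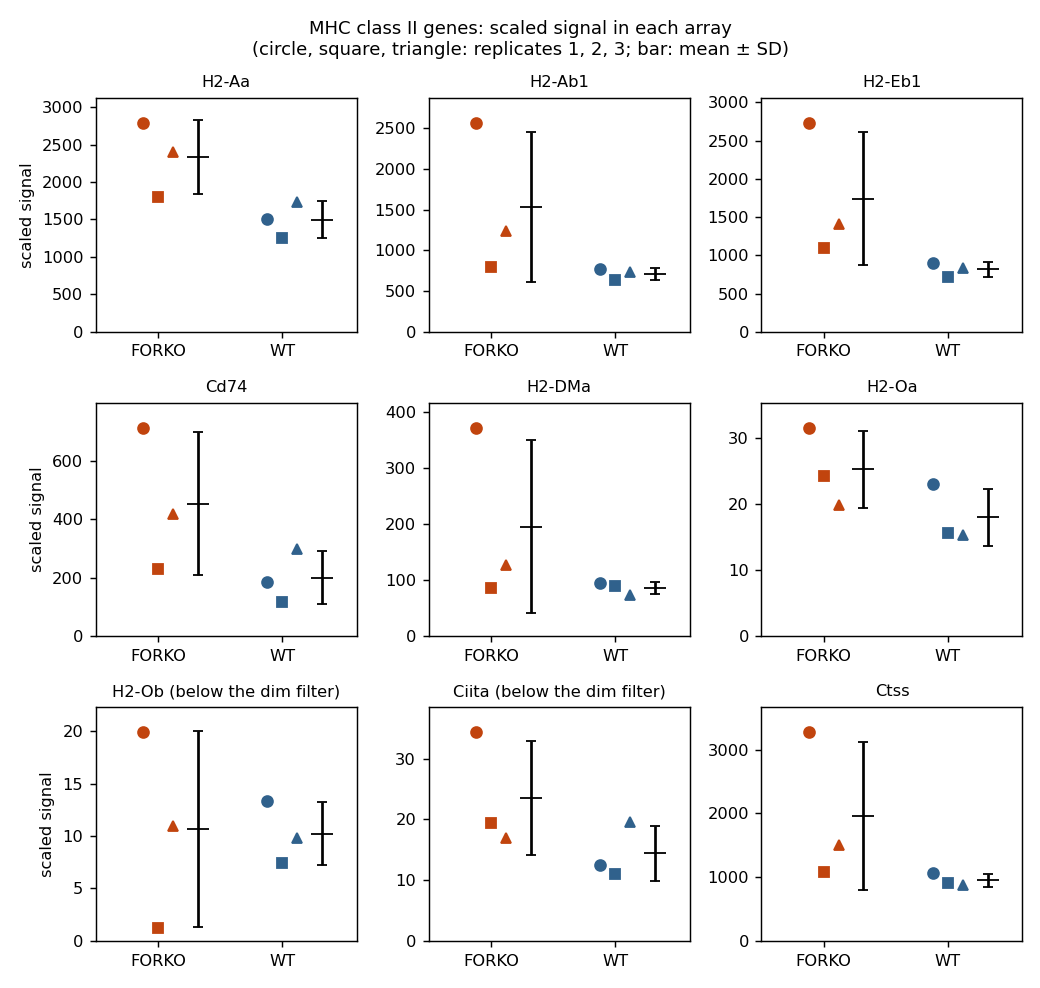
Scaled signal of the 9 class II genes in each array, FORKO (orange) left of WT (blue), with circles, squares and triangles for replicates 1, 2 and 3 and bars for mean ± SD (n = 3). FORKO replicate 1 is the highest array in all 9 panels, and the groups are separate for H2-Aa, H2-Ab1, H2-Eb1 and Ctss.

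Among the chains, H2-Aa, the alpha chain of the I-A molecule, read 2785, 1806 and 2399 on FORKO arrays 1, 2 and 3, against 1502, 1246 and 1738 on WT arrays 1, 2 and 3. Every FORKO array lay above every WT array, though FORKO replicate 2 exceeded the highest WT array only narrowly. The log2 change was 0.63 ± 0.19 (SE; 95% interval 0.21 to 1.05; limma adjusted p = 0.152). An exact permutation test, two-sided, gave 0.1, which 3 arrays a group cannot go below. It was 0.49 without FORKO replicate 1 (limma adjusted p = 0.193). With the replicate number as a block, a pairing drawn from these same data, the limma adjusted p was 0.0483. Its 3 other probe sets differed by 1.04 to 1.43 (limma adjusted p = 0.0897 to 0.170).

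The H2-Aa probe set with the largest difference of these 3 had signals of 859, 293 and 358 in FORKO and 148, 140 and 209 in WT ovaries. Without FORKO replicate 1 the log2 change of this probe set was 0.96, with a limma adjusted p of 0.0225. It was the 1 class II probe set of 12 tested that passed in that fit, in which 3.19% of all genes passed with FORKO higher. Suffixes x and s mark probe sets that can match related transcripts, and 3 of the 4 H2-Aa probe sets carry x and the other s.

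H2-Ab1, the beta chain that pairs with H2-Aa, read 2560, 793 and 1234 on the FORKO arrays and 769, 633 and 734 on the WT arrays. The groups did not overlap, but FORKO replicate 2 lay only just above the highest WT array while replicate 1 was several times higher. The log2 change was 0.93 ± 0.34 (SE; 95% interval 0.16 to 1.70; limma adjusted p = 0.249). It was 0.48 without FORKO replicate 1 (limma adjusted p = 0.255). The 2 other probe sets of H2-Ab1 differed by 1.23 and 1.40 (limma adjusted p = 0.182 and 0.207), again with no overlap between groups.

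H2-Eb1, the beta chain of the I-E molecule and the gene with the paired X and Y cores above, read 2729, 1094 and 1409 on the FORKO arrays, against 903, 716 and 828 on the WT arrays. Its groups were separate by a wider margin than those of H2-Ab1. The log2 change was 0.99 ± 0.29 (SE; 95% interval 0.34 to 1.63; limma adjusted p = 0.141), with an adjusted p of 0.0433 under the replicate block. H2-Eb1 and H2-Aa were the 2 of 7 genes past the threshold with the block, a fit in which 2.4% of all genes passed with FORKO higher. That pairing of replicate numbers was drawn from the data, as set out with the processing. Without FORKO replicate 1 the change of H2-Eb1 was 0.61 (limma adjusted p = 0.0815).

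Cd74, the invariant chain that guides class II to the endosome and shields its groove, read 713, 229 and 420 on the FORKO arrays and 185, 118 and 300 on the WT arrays. WT replicate 3 lay above FORKO replicate 2, so the groups overlapped. The log2 change was 1.1 ± 0.41 (SE; 95% interval 0.18 to 2.02; limma adjusted p = 0.253), and it was 0.71 without FORKO replicate 1 (limma adjusted p = 0.318). Cd74 had the widest WT spread of the 7 genes, with an SD of 0.65 on the log2 scale, where the median SD of the 7 was 0.18 in WT.

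Ctss, cathepsin S, which cuts the invariant chain, read 3273, 1082 and 1508 on the FORKO arrays, against 1072, 905 and 883 on the WT arrays. FORKO replicate 2 was nearly level with WT replicate 1, and the groups did not overlap. The log2 change was 0.88 ± 0.33 (SE; 95% interval 0.13 to 1.62; limma adjusted p = 0.260). Without FORKO replicate 1 it was 0.43 (limma adjusted p = 0.265).

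H2-DMa, the alpha chain of the peptide exchanger DM, read 371, 87.0 and 127 on the FORKO arrays and 95, 90.1 and 73.8 on the WT arrays. FORKO replicate 2 lay below 2 of the WT arrays, and the mean difference came mainly from FORKO replicate 1. The log2 change was 0.87 ± 0.43 (SE; 95% interval -0.09 to 1.82; limma adjusted p = 0.391), and it was 0.28 without that array (limma adjusted p = 0.598). The second probe set of H2-DMa did not reach the dim filter.

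The DO genes, whose product inhibits DM and is best known from B cells, were dim. H2-Oa, its alpha chain, read 31.5, 24.2 and 19.9 on the FORKO arrays, against 22.9, 15.6 and 15.3 on the WT arrays. FORKO replicate 3 lay below WT replicate 1, and the log2 change was 0.38 ± 0.27 (SE; 95% interval -0.21 to 0.98; limma adjusted p = 0.576), or 0.24 without FORKO replicate 1 (limma adjusted p = 0.759). H2-Ob, its beta chain, read 19.9, 1.19 and 11.0 in FORKO and 13.4, 7.39 and 9.85 in WT ovaries, all under the filter. The H2-Ob arrays of the groups overlapped, with both the highest and the lowest reading in FORKO.

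Ciita, the master regulator of the family, was near the floor on all 3 of its probe sets, none of which reached the filter. Its brightest read 34.3, 19.3 and 17.0 in FORKO and 12.6, 11.0 and 19.6 in WT ovaries. FORKO replicate 1 was again the highest array, WT replicate 3 exceeded both other FORKO arrays, and an exact permutation test, two-sided, gave 0.3. The other probe sets read 7.29 to 19.1 in FORKO and 1.35 to 16.2 in WT ovaries. At these signals the arrays could not resolve a change of Ciita.

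**Figure D3:**
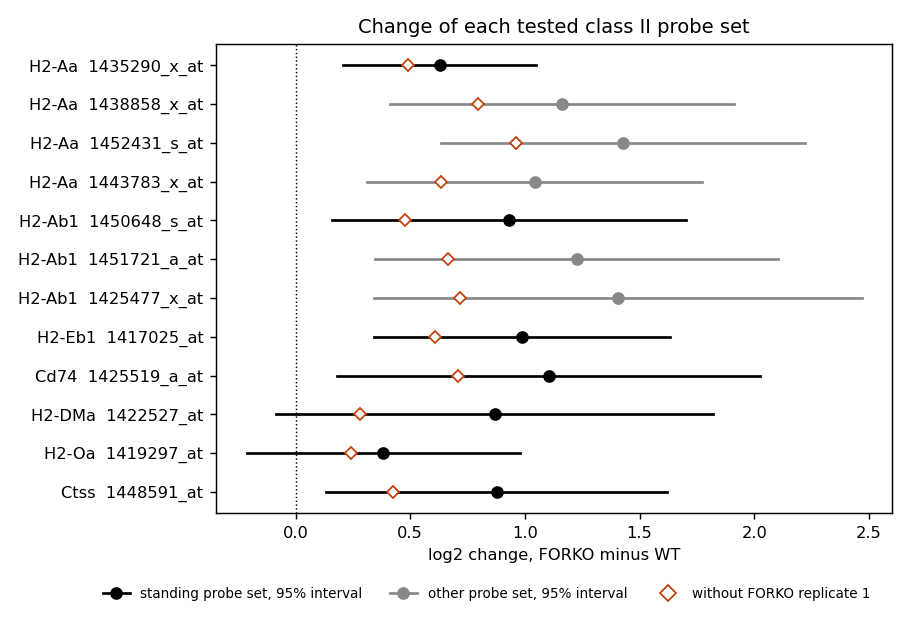
Log2 change (FORKO minus WT) of the 12 tested class II probe sets with 95% intervals from limma, standing probe sets in black and others in grey; open diamonds give the change without FORKO replicate 1. All 12 filled points lie above 0, and every diamond lies nearer to 0 than its filled point.

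Against the WT mean, FORKO replicate 1 differed by 0.67 to 2.04 (median 1.78), replicate 2 by 0.02 to 0.43 (median 0.28) and replicate 3 by 0.13 to 1.14 (median 0.69), on the log2 scale. FORKO replicate 3 read above replicate 2 for 6 of the 7, the exception being H2-Oa. The spread within FORKO was larger than within WT for all 7, with a median SD of 0.81 in FORKO and 0.18 in WT on the log2 scale. Without FORKO replicate 1 the median change of the 7 was 0.48, and their range was 0.24 to 0.71.

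Genes of the wider pathway mostly did not pass. Among other class II genes, 0 of 1 tested passed. The DM beta chain gene H2-DMb2, with its X and Y pair, read 50.6, 31.0 and 33.7 on the FORKO arrays and 14.9, 15.9 and 16.2 on the WT arrays. All FORKO arrays lay well above a tight WT group, giving a log2 change of 1.02 ± 0.25 (SE; limma adjusted p = 0.0851), though its WT mean was below the filter. The probe set of H2-DMb2 carries the suffix x, so it can match related transcripts. No probe set was annotated to H2-DMb1, the other DM beta chain, alone. H2-Ea, the alpha partner of H2-Eb1 that the reference annotates as a transcribed pseudogene, read 5.90 to 13 in FORKO and 3.94 to 8.59 in WT ovaries and was not tested, nor was H2-Eb2.

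Factors that bind the X and Y boxes showed no shared direction: of 7 tested, 0 passed, with 4 positive and 3 negative changes and a median of 0.01. Rfx5, the DNA-binding subunit of the RFX complex, read 310, 368 and 445 in FORKO and 253, 225 and 335 in WT ovaries (log2 change 0.46, limma adjusted p = 0.335). Nfya, a subunit of NF-Y, differed by 0.44 (limma adjusted p = 0.574).

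On the route from interferon-gamma to Ciita, 0 of 6 tested genes passed, and all 6 changes were positive (median 0.37). Irf1, a transcription factor that interferon-gamma induces and that acts on Ciita, read 2033, 729 and 836 in FORKO and 682, 658 and 536 in WT ovaries (log2 change 0.78, limma adjusted p = 0.313; 0.32 and 0.396 without FORKO replicate 1). Its FORKO arrays all lay above the WT arrays, with replicate 1 far above the other two. Ifng, interferon-gamma itself, read 83.0, 10.9 and 21.3 in FORKO and 18.5, 10.8 and 11.6 in WT ovaries, so that FORKO replicate 2 was at the WT level (log2 change 0.84, limma adjusted p = 0.521; 0.15 and 0.884 without FORKO replicate 1). The WT mean of Ifng was below the filter.

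Among proteases and other genes of endosomal processing and class II turnover, 0 of 10 tested passed, with 8 positive changes and a median of 0.17. Cst3, cystatin C, an inhibitor of cathepsins, read 2355, 1378 and 1723 in FORKO and 1186, 1312 and 1246 in WT ovaries (log2 change 0.51, limma adjusted p = 0.253; 0.30 and 0.383 without FORKO replicate 1). Ctsz, a cathepsin, differed by 0.45 (limma adjusted p = 0.206). The groups did not overlap for either gene.

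Of genes for contact with T cells, 1 of 2 tested passed with FORKO higher, against 1.3% of all genes tested. Icam1, the adhesion molecule that T cells bind through LFA-1, rose: it read 217, 121 and 147 in FORKO and 63.9, 57.6 and 83.8 in WT ovaries (log2 change 1.15 ± 0.24, SE; limma adjusted p = 0.0497). All FORKO arrays were above all WT arrays, and the change was 0.93 without FORKO replicate 1 (limma adjusted p = 0.0327). The call was close to the threshold: it held in 5 of 15 alternative fits (adjusted p = 0.0311 to 0.204), where the change stayed between 0.93 and 1.33. Among arrays left out in turn, it was lost without WT replicate 1, 2 or 3 or FORKO replicate 3. Cd86, a co-stimulatory ligand of CD28, read 72.5, 36.9 and 34.3 in FORKO and 19.8, 22.8 and 31.2 in WT ovaries (log2 change 0.77, limma adjusted p = 0.269; 0.46 and 0.442 without FORKO replicate 1).

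Markers of cells that can carry class II moved in part with these genes. In whole ovaries, more cells of a type and more RNA per cell cannot be told apart. Genes common to leukocytes had a summed signal of 4055, 1325 and 1832 on FORKO arrays 1, 2 and 3 and of 1303 to 1837 in WT, and 0 of 5 passed. Ptprc, the pan-leukocyte phosphatase CD45, read 1165, 285 and 432 in FORKO and 310, 267 and 250 in WT ovaries (log2 change 0.92, limma adjusted p = 0.346), and Coro1a differed by 0.69 (limma adjusted p = 0.486). Without FORKO replicate 1 the difference was 0.35 for Ptprc and 0.17 for Coro1a. FORKO replicate 1 was thus the highest array for leukocyte genes as it was for class II genes, and the sums of replicates 2 and 3 lay within the WT range.

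Macrophage markers summed to 5429, 2614 and 3379 on FORKO arrays 1, 2 and 3, and to 2654 to 3090 in WT, and 0 of 11 tested passed. Mertk, a receptor for the uptake of dying cells, read 252, 145 and 203 in FORKO and 115, 100 and 123 in WT ovaries (log2 change 0.77, limma adjusted p = 0.133), and C1qa differed by 0.56 (limma adjusted p = 0.353). Of 8 dendritic cell markers with a probe set, 4 were tested and 0 passed. They showed no shared direction, with 2 positive and 2 negative changes and a median of 0.13. Itgax, the integrin CD11c, read 90.7, 31.0 and 42.5 in FORKO and 19.1, 10.1 and 8.95 in WT ovaries (log2 change 1.63 ± 0.37, SE; limma adjusted p = 0.0690), a complete separation of the groups; with the replicate block its adjusted p was 0.0220. Its WT mean was below the filter. Fscn1, which ovarian cells of other types also express, differed by -0.57 (limma adjusted p = 0.642), or 0.08 without FORKO replicate 1, and it made up most of that list's sum of 631 to 1645 in FORKO and 1133 to 1820 in WT ovaries.

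B cell markers were near the floor: 0 of 5 reached the filter, and their sum was 37.7 to 56.2 in FORKO and 29.99 to 71.8 in WT ovaries. T cell markers summed to 84.2 to 151 in FORKO and 84.7 to 91.0 in WT ovaries, and 0 of 2 tested passed; Cd3g differed by 0.42 (limma adjusted p = 0.708), or -0.05 without FORKO replicate 1, and Thy1 by 0.20 (limma adjusted p = 0.765). Cd3g had a WT mean below the filter. Surface epithelium markers summed to 1317 to 2305 in FORKO and 762 to 890 in WT ovaries, and all 7 changes were positive. Of the 7, 2 rose, against 1.3% of all genes tested: the keratins Krt18 (log2 change 1.15, limma adjusted p = 0.0321) and Krt8 (1.07, 0.0155). The count was 0 without WT replicate 1, 2 or 3 or FORKO replicate 3, and 1 without FORKO replicate 2, with scaling to the same median or with eBayes without trend. Upk3b differed by 1.11 (limma adjusted p = 0.104). Wt1 and Msln differed by 0.25 and 0.21, or by -0.19 and -0.16 without FORKO replicate 1, and their groups overlapped. Msln, counted among the 7, had a WT mean below the filter and was tested through its FORKO signals. The part of any of these cells in the class II signals was not tested.

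The endothelial list summed to 369 to 451 in FORKO and 315 to 394 in WT ovaries, with 0 of 3 passing and differences of 0.31 for Kdr and 0.15 for Tek (0.30 without FORKO replicate 1). Of 6 granulosa genes tested, Fshr fell and 5 did not pass, though Amhr2 (log2 change 0.66, limma adjusted p = 0.0697) did with the replicate block (0.0346). Inhba read 54.2, 3867 and 3756 in FORKO and 4332, 2046 and 2931 in WT ovaries, a log2 difference of -1.63 that became 0.36 without FORKO replicate 1. The granulosa sum was 5797, 12696 and 13654 on FORKO arrays 1, 2 and 3, against 9970 to 13526 in WT. The array with the highest class II signals thus had the lowest granulosa sum. Of the 6 changes, 4 were negative and 2, those of Amhr2 and Foxl2, positive. The 4 include Fshr, the deleted gene, whose fall therefore does not speak for granulosa cells. On FORKO replicate 1 Amhr2 read 2841 and Foxl2 849, against 1550 to 1745 and 626 to 810 in WT. Of 4 theca and luteal genes 0 passed (Star -0.87, which passed with the replicate block at an adjusted p of 0.0418, and Cyp17a1 0.58, or -0.27 without FORKO replicate 1), and the sum was 9487 to 10389 in FORKO and 12447 to 13040 in WT ovaries. Of 5 oocyte genes tested, 2 fell, against 0.839% of all genes tested: Zp2 (-1.29, limma adjusted p = 0.0112) and Zar1 (-1.05, 0.0368). The count was 0 without WT replicate 1 or 2, and 1 without WT replicate 3, FORKO replicate 2 or FORKO replicate 3, with no filter on dim probe sets or with eBayes without trend. Gdf9 differed by -1.31 (limma adjusted p = 0.0859; 0.0209 without FORKO replicate 1), and the sum was 254 to 430 in FORKO and 715 to 874 in WT ovaries.

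**Figure D4:**
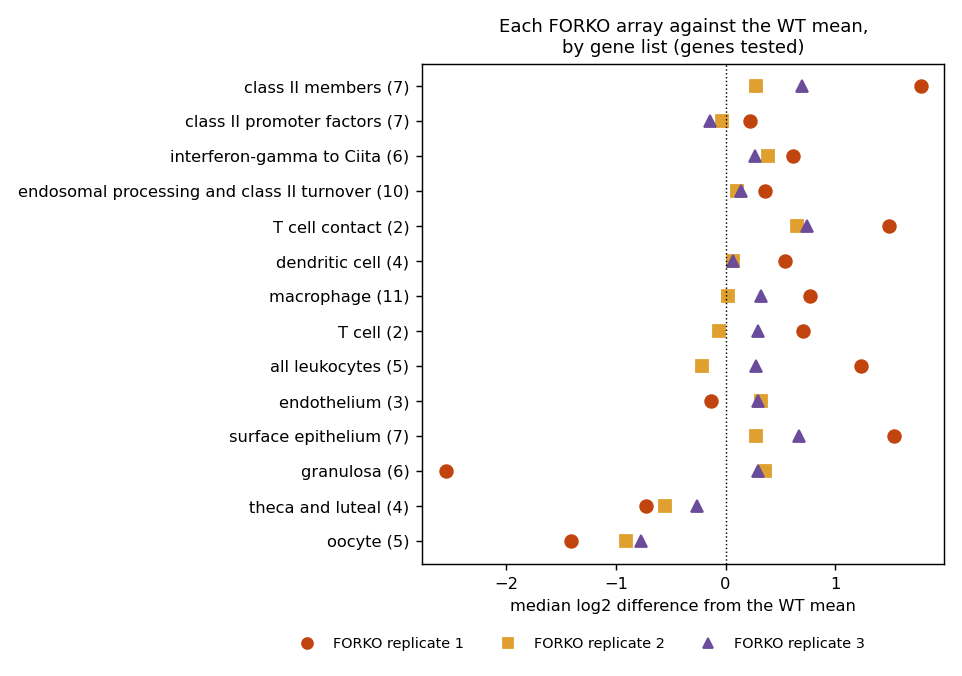
Median log2 difference of each FORKO array from the WT mean, for the 7 tested class II genes and for each pathway or marker list with at least 2 genes tested (number tested in brackets). Replicate 1 lies farthest to the right for 10 of the 14 lists, class II among them, and farthest to the left for the endothelium, granulosa, theca and luteal, and oocyte lists. The granulosa list includes Fshr, the deleted gene.

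The genes whose profile was most like that of the class II genes were found by the root-mean-square difference, over the 6 arrays, from the mean log2 profile of H2-Aa, H2-Ab1, H2-Eb1 and Cd74, each centred on its WT mean. Among 11199 genes the 10 nearest named ones were Prkcb (0.09), Gstm2 (0.09), Creg1 (0.13), Gpr65 (0.13), Ifi47 (0.14), Ly86 (0.14), Lgals2 (0.15), Igfbp6 (0.15), Cd274 (0.15) and Chrnb1 (0.16), with the difference in log2 units in brackets. They include the protein kinase C beta gene Prkcb, the interferon-induced GTPase gene Ifi47 and Cd274, which encodes PD-L1. H2-Eb1 (0.14) and H2-Ab1 (0.15), which are part of the reference, lay as near, Ctss ranked 42 of all genes, Cd74 127, H2-Aa 157, H2-DMa 278 and H2-Oa 1029. None of the 10 passed limma's test (adjusted p = 0.110 to 0.301). Cd274 and Chrnb1 had WT means below the filter and were tested through their FORKO signals.

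**Figure D5:**
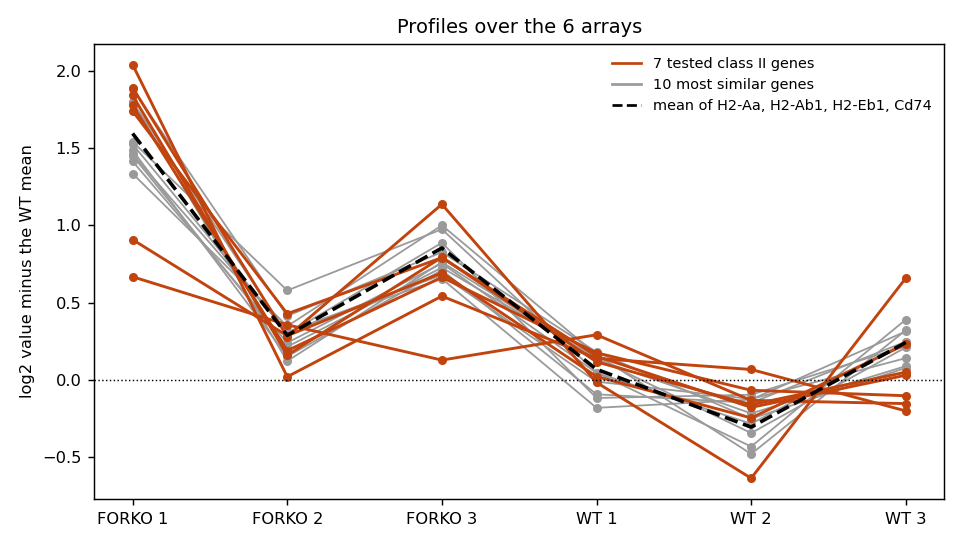
Log2 value minus the WT mean in each of the 6 arrays, for the 7 tested class II genes (orange), the 10 genes with the most similar profile (grey) and the mean of H2-Aa, H2-Ab1, H2-Eb1 and Cd74 (dashed). The dashed profile is 1.6 in FORKO replicate 1, 0.29 in replicate 2 and 0.85 in replicate 3, against -0.31 to 0.24 in WT; lines join arrays of 1 gene and carry no order.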

How the data were processed

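Per the submitters' processing notes the deposited values are MAS5 signals, a linear array intensity with 1 value per probe set; the scaling target is not given in the sources used here. Titles and the genotype field set the groups, although free text for the FORKO samples speaks of wild-type mice. Replicates are called biological, with no mice named, so the p-values reflect only how these samples vary, and 3 arrays a group limit precision. None of the 6 within-group pairs of arrays was identical.

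Arrays were brought to 1 mean signal, trimmed by 2% at both ends, with factors of 0.895 to 1.09. The pooled 25th percentile, 5.73, was the pseudocount. The 64 control probe sets and those below the median of all mean signals, 20.4, were left out. The other 22506 went into a limma fit (version 3.58.1, R 4.3.3; eBayes with an intensity trend, two-sided, Benjamini-Hochberg at 0.05), a procedure tested on simulated data, and 372 passed. The simulated arrays all had the same spread for a given probe set, so the simulation did not cover an outlying array such as FORKO replicate 1. Figures used matplotlib 3.10.9. The annotation gave 1 symbol for 34958 probe sets, several for 932, which named no gene, and none for 9211.

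The genes, lists and motifs were chosen with earlier results of these data known. The text names every class II gene of the list, Fshr, those genes of a pathway list that passed or else its 2 largest changes, the 2 largest changes of each marker list, and the 10 nearest profiles. Cd86, Krt8, Wt1, Msln, Zar1, H2-Ea, H2-Eb2, H2-DMb1, Foxl2, Amhr2 and Amh were added after their values were seen.

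Replicate numbers 1 to 3 occur in both groups, and no label ties them to a litter or day. Arrays with the same number deviated together from their group means (correlations 0.195, 0.135 and 0.358, all above 0.1). On that basis, from the data alone, the numbers were treated as pairs in an alternative fit, while the main fit had no block. Adjusted p-values under the block thus rest on a pairing chosen in these same arrays and are not independent support. Alternatives covered the normalization, pseudocount, filter, variance model, array weights, this block, each array left out and the probe set of a gene.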

Additional observations from a re-analysis of the deposited data

How the results depend on the processing

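Of the 7 class II genes tested, 0 passed under 15 of the 16 alternatives, and 2 (H2-Aa and H2-Eb1) under the replicate block. All 112 values of these genes under the alternatives kept a positive change. Their median change of 0.88 ranged from 0.48 without FORKO replicate 1 to 1.27 without FORKO replicate 2. Over all probe sets, 372 passed; the count was 221 with no filter on dim probe sets, 712 with array weights (FORKO replicate 1 had the lowest weight, 0.43), 691 with the replicate block, and 62 to 864 with 1 array left out, the ends being WT replicate 2 and FORKO replicate 1. The share of calls that were higher in FORKO was 64.0%, against 50.6% with scaling to the same median. The Fshr change was -3.17 to -2.46 with 1 array left out. Counts of the pathway and marker lists moved by over 1.5 times in 36 of 225 cases. The cause of these shifts was not tested. Signals near the floor limit what can be said of Ciita, H2-Ob and H2-Oa.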
